A study of Mus musculus with 16 samples.

Results

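The 39 protein-coding Hoxa, Hoxb, Hoxc and Hoxd genes of the mouse were followed across 16 RNA libraries of an inner medullary collecting duct cell line. They were taken by symbol from the GENCODE M21 annotation of GRCm38, which places 11 in the Hoxa cluster, 10 in Hoxb, 9 in Hoxc and 9 in Hoxd, out of 55536 genes listed. The line comes from a Pkd2 knockout mouse, and doxycycline (DOX) induces the loss of Pkd2 in it. Pkd2 encodes polycystin-2, a cation channel mutated in autosomal dominant polycystic kidney disease. All cells grew for 10 days on permeable filters in medium with serum, and the 4 groups of 4 libraries were passage 7 cells with DOX at 2 ug/mL for 6 days, passage 7 cells without DOX, passage 4 cells with the same DOX treatment, and passage 4 cells without DOX. The series asks how the transcriptome responds early to loss of Pkd2. By their titles the libraries without DOX are Pkd2 knockout cells as well, although the genotype label calls them wild type, and no group outside this line was given DOX. The effect of DOX itself and that of losing Pkd2 therefore cannot be told apart. The labels name 1 line, and neither the promoter that drives the recombination nor the number of separate cultures is given in the sources used here, so p-values measure the spread between these libraries, which may be technical.

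Hox genes encode homeodomain transcription factors that give cells their position along the head to tail axis. They sit in 4 clusters, in which the gene order follows the order of expression from anterior (group 1) to posterior (group 13), and genes of the same number in different clusters are paralogs. In the kidney the ureteric bud, which forms the collecting duct, expresses many of them, and the Hox11 paralogs of the neighbouring mesenchyme are needed for the bud to grow out. Adult epithelia keep a Hox pattern that Polycomb and Trithorax proteins are known to hold in place.

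Total counts ran from 9937504 to 17188295 per library, and the Hox genes together took 0.0873% to 0.117% of them. Pkd2 averaged 56.7 CPM (the count scaled to library size with TMM factors) with DOX and 185 CPM without at passage 7, and 52.7 CPM with DOX and 140 CPM without at passage 4, so the counts follow the DOX labels (edgeR's quasi-likelihood test, adjusted p = 4.3e-11 and 8.8e-10; exact 2-sided permutation p = 0.0286 at each passage, the smallest that 4 against 4 libraries can give). In the text below every fold change and adjusted p comes from that edgeR test over all 15316 genes tested, and called means an adjusted p under 0.05. Replicates 3 and 4 stood apart from replicates 1 and 2 in every group: their deviations from the group means correlated at 0.18 to 0.39 within these pairs of replicates, over all group pairs, and at -0.34 to -0.18 between them. The labels name no batch for this split. The epithelial markers Cdh1, Epcam and Krt8 were high in every library, with group means of 584 to 715 CPM for Cdh1, whereas the water channel Aqp2, which defines principal cells of the collecting duct, was at 0 in all 16 libraries. In such bulk samples fewer cells of a type and less RNA per cell cannot be told apart.

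Each cluster was expressed over one run of neighbouring genes. Levels were compared between genes as CPM per kb of exon, averaged over the 16 libraries. The length was that of all annotated exons of a gene merged, which can exceed the length of any single transcript. On that scale 27 of 39 members reached at least 1, namely 9 of 11 in Hoxa, 8 of 10 in Hoxb, 6 of 9 in Hoxc and 4 of 9 in Hoxd, and 14 members reached at least 10. The run reached up to Hoxa11 in Hoxa (with Hoxa2 lower, at 0.577) and spanned Hoxb2 to Hoxb9, Hoxc4 to Hoxc10, and Hoxd8 to Hoxd10 with a lower Hoxd4 (1.24). Of the exon bases of Hoxd4 52.3%, and of those of Hoxd3 62.3%, are shared on the same strand with each other or with Gm28230, so reads there may be split or uncounted and both levels may be too low. The members posterior to these runs were at 0.645 CPM per kb (Hoxc13) or less.

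Hoxb9, which patterns the thoracic skeleton with its paralogs, had the highest level of all, 72.6 ± 7.93 CPM per kb (SD, n = 16). Hoxb6 followed at 44.8 ± 7.5 and Hoxb7 at 41.5 ± 11.3, over the same libraries, whose spread includes the differences between the groups. Within groups Hoxb6 was at 34.7 ± 3.49 and Hoxb7 at 27.2 ± 1.85 with DOX at passage 7, with no overlap of the libraries (SD, n = 4). In the other 3 groups their libraries overlapped, and without DOX at passage 4 the means stood the other way round, 48.3 for Hoxb6 and 53.7 for Hoxb7. Hoxb7 is the gene whose promoter is widely used to express transgenes in the ureteric bud and collecting duct. Hoxd8 came next at 32.8 ± 3.38 and Hoxb8 at 23.5 ± 7.13. Libraries of Hoxd8 were below those of Hoxb7 in every group but passage 7 with DOX, where they overlapped with means of 28.9 and 27.2. The order then ran Hoxd9 (19.2), Hoxd10 (18.4), Hoxc10 (18) and Hoxa10 (16.8), with each step smaller than the larger SD of the pair. The 3 paralogs of group 10 were thus neighbours on this scale. Hoxb4 (13.7), Hoxb5 (12.6), Hoxc6 (12), Hoxb3 (11.5) and Hoxa9 (11.3) were likewise not separated by their spread over the 16 libraries. The order depends on the exon length used. Hoxa9 has 5580 bp of merged exons, against 3226 bp in its longest coding transcript, and Hoxa10 3270 bp against 2565 bp. With those shorter lengths both would stand higher, and the paralogs of group 10 may not be neighbours. Of the 13 pairs of neighbours in the order down to Hoxa9, 10 changed places in at least 1 group by their means, while Hoxb9 was above Hoxb6 in all 4 without overlap. The members from Hoxa5 (9.84) down to Hoxc5 (1.16) filled the range below 10 CPM per kb. Hoxc13, Hoxa2, Hoxb13 and Hoxd3 lay between 0.645 and 0.335.

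**Figure D1:**
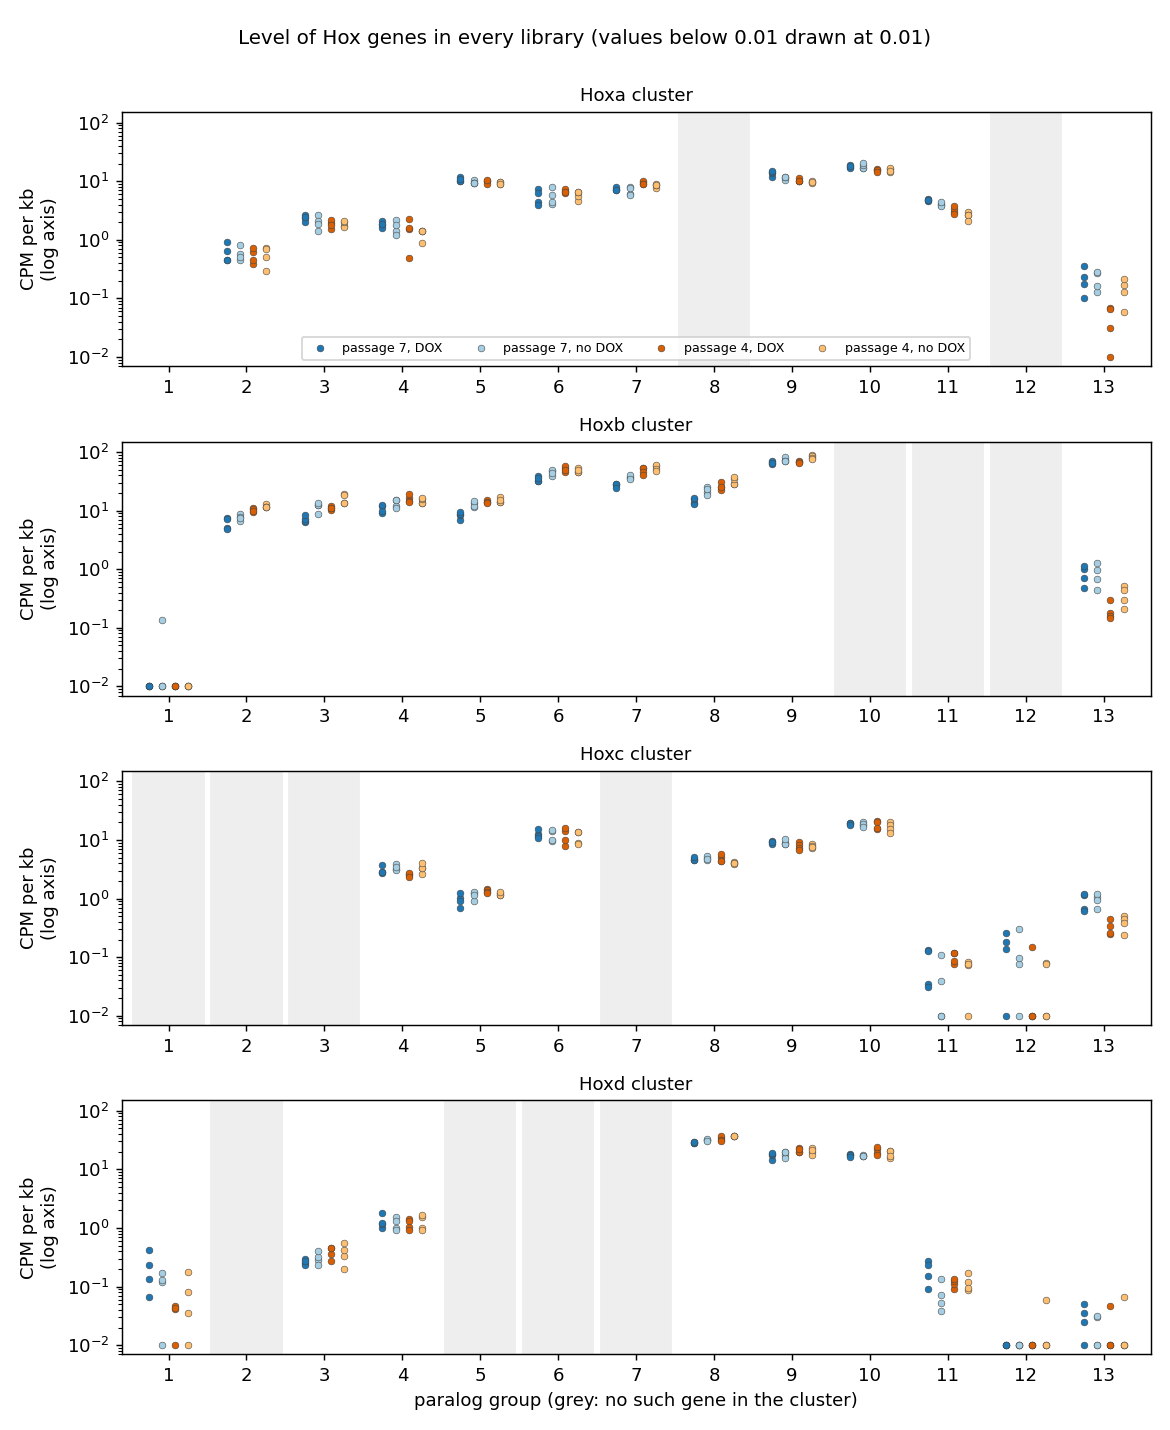
Level of the Hox genes reported here in every library, as CPM per kb of exon on a log axis, by paralog group within each cluster; each point is 1 library, and values below 0.01 are drawn at 0.01. The level drops after group 11 in Hoxa, after group 9 in Hoxb and after group 10 in Hoxc and Hoxd, in all 4 groups of libraries.

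The posterior ends were steep. In Hoxd, Hoxd10 held 7135 counts over the 16 libraries and its neighbour Hoxd11, whose start lies 12367 bp away, 111 counts, a ratio per kb of 149 (exact Poisson 95% interval 124 to 181 from the counts of Hoxd11, which covers counting error only). The merged exons of Hoxd11 total 4212 bp, against 1111 bp in its longest coding transcript. With that shorter length the ratio would lie well below the interval, which does not cover the choice of length. The step from Hoxc10 to Hoxc11, over 12369 bp, was 259-fold per kb (182 to 384), with 7347 against 30 counts. In Hoxa the level fell in stages: Hoxa10 exceeded Hoxa11 4.54-fold per kb (4.34 to 4.76), and Hoxa11 exceeded Hoxa13 24.9-fold (20.0 to 31.5). Of group 11, the paralogs known from kidney formation, Hoxa11 was at 3.68 ± 0.92 CPM per kb, Hoxd11 at 0.123 and Hoxc11 at 0.0689. The anterior end of Hoxb was as abrupt, for Hoxb2 had 6675 counts and Hoxb1, the next gene, had 4 counts in replicate 2 of passage 7 without DOX and 0 in the other 15 libraries.

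The 8 members not tested for change because of low counts were Hoxa13, Hoxb1, Hoxc11, Hoxc12, Hoxd1, Hoxd11, Hoxd12 and Hoxd13. Hoxd11 had 6 to 16 counts in passage 7 libraries with DOX, 2 to 7 without, 5 to 8 in passage 4 libraries with DOX and 5 to 9 without. Hoxa13, a regulator of the distal limb and urogenital tract, had 4 to 10, 4 to 9, 0 to 2 and 2 to 8 counts in the same 4 groups. Hoxd1 reached 11 counts in 1 passage 7 library with DOX and no more than 4 in the groups without DOX. Hoxc11, Hoxc12, Hoxd12 and Hoxd13 never exceeded 4 counts. The other 31 members passed the filter, and every fold change of a Hox gene below refers to these.

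Hoxb8 and Hoxb1 mark the contrast inside the Hoxb cluster, one expressed and changing and the other silent, and RefSeq's GRCm38.p6 table holds promoters for both, though for 22 of the 39 members in all. The 250 bases upstream of each start are shown because Hox clusters are themselves bound by homeodomain proteins. Capitals mark the motifs TGATNNAT (the type bound by a Hox protein with its partner PBX) and TTTATNG (the type bound by caudal, CDX, proteins), each searched on both strands, and no match overlapped another in these sequences. The Hoxb8 promoter lies at chr11:96281655-96281904 on the plus strand and the Hoxb1 promoter at chr11:96365508-96365757 on the plus strand.
Hoxb8: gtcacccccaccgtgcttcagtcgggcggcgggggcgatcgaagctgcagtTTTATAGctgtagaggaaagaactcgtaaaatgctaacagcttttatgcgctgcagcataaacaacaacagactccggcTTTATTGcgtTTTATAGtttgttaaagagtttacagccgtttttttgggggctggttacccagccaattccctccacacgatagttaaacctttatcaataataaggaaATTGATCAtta
Hoxb1: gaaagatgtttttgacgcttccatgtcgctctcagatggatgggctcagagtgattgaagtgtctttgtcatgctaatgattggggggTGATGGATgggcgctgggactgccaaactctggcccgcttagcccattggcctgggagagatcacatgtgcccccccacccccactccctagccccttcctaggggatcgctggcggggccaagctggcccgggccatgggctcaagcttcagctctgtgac
The Hoxb8 promoter held 1 match to TGATNNAT and 3 to TTTATNG, and the Hoxb1 promoter 1 match to TGATNNAT. Over all 32851 promoters of that length, 7.7% held TGATNNAT and 9.8% held TTTATNG, against 4 and 2 of the 24 promoters of Hox genes. The Hox promoters had a median of 12.5 CpG dinucleotides and 58.6% GC, against 6 and 52.4% over all promoters. These matches describe the letters only.

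At passage 7, DOX lowered 5 genes in the middle of the Hoxb cluster, not including Hoxb4. Hoxb4, which lies between Hoxb3 and Hoxb5, was not called. It stood at -0.31 on the log2 scale (adjusted p = 0.1), and its groups overlapped. Hoxb3, Hoxb5, Hoxb6, Hoxb7 and Hoxb8 fell to 0.61 to 0.778 of their level without DOX, Hoxa9 rose 1.22-fold, and no member of Hoxc or Hoxd passed the test. These 6 calls were 19.4% of the 31 members tested, against 22.6% of all 15316 genes tested, so the share of members called was near the background. By direction, 1 member was higher, beside 11.1% of all genes, and 5 were lower, beside 11.6%. The median log2 fold change was -0.36 over the 9 tested Hoxb members and 0.12 over the 10 tested Hoxa members, beside -0.01 over all genes.

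Hoxb3, which patterns the hindbrain and pharyngeal arches with its paralogs, had 27.04, 28.5, 31.1 and 35.5 CPM in passage 7 libraries with DOX, replicates 1 to 4 in order, against 52.5, 37.7, 53.4 and 57.4 CPM without DOX. In passage 4 libraries it had 44.1, 50.8, 47.8 and 46.3 CPM with DOX, against 56.3, 56.5, 79.96 and 79 CPM without. All 4 libraries with DOX were below all 4 without at each passage, and the log2 fold change was -0.71 (SE 0.14, adjusted p = 0.0012) at passage 7. Of its exon bases 52.9% lie opposite the antisense gene Hoxb3os, and since the strand setting of the counting is not given, reads of the 2 genes may not be separated there.

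Hoxb5, known from lung and enteric nerve development, had 19.1, 22.97, 24.5 and 26.7 CPM with DOX at passage 7, against 37.5, 32.5, 33.4 and 40.3 CPM without. Its passage 4 libraries had 38.4, 42.6, 38.7 and 37.2 CPM with DOX, against 38.9, 38.3, 47.3 and 42.7 CPM without. The passage 7 groups did not overlap, with a log2 fold change of -0.62 (SE 0.10, adjusted p = 0.00016), whereas at passage 4 they did. Hoxb6 had 62.9, 76.7, 62.5 and 70.8 CPM in passage 7 libraries with DOX, against 91.7, 95.1, 77.5 and 86.5 CPM in those without. Its values at passage 4 were 106, 114, 89.9 and 96.3 CPM with DOX, against 90.3, 88.7, 103 and 97.2 CPM without. Here too only the passage 7 groups were apart, the highest library with DOX lying just below the lowest without, and the log2 fold change there was -0.36 (SE 0.09, adjusted p = 0.0047).

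Hoxb7 had 44.6, 41.6, 43.7 and 38.1 CPM with DOX at passage 7, against 54.7, 57.6, 62.1 and 53.5 CPM without DOX. With DOX at passage 4 it had 81.1, 83.1, 70.2 and 63.5 CPM, against 88.7, 91.7, 78.2 and 73.3 CPM without. The passage 7 libraries with DOX were the 4 lowest of all 16, and the log2 fold change at passage 7 was -0.44 (SE 0.09, adjusted p = 0.0015). Hoxb8, best known from blood cells and microglia, had 35.1, 33.8, 41.7 and 42.7 CPM with DOX at passage 7, against 53.96, 49.03, 65.2 and 62.3 CPM without. For passage 4 the values were 66.3, 79.8, 59.3 and 65.2 CPM with DOX, against 75.5, 73.7, 91.4 and 96.8 CPM without. Its passage 7 groups were apart, with a log2 fold change of -0.58 (SE 0.12, adjusted p = 0.0014), and its passage 4 groups overlapped.

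Hoxa9, a regulator of blood progenitors and of the axial skeleton, had 66.8, 75.7, 78.6 and 84.4 CPM with DOX at passage 7, against 62.5, 57.6, 64.5 and 67.01 CPM without. In the passage 4 groups it had 56.5, 63.7, 56.8 and 55.2 CPM with DOX, against 53.8, 51.5, 56.7 and 54.8 CPM without. Replicate 1 with DOX lay inside the range without DOX, and the log2 fold change at passage 7 was 0.28 (SE 0.07, adjusted p = 0.0073). All 6 calls of DOX at passage 7 were kept when any 1 of the 16 libraries was left out. Within replicates 1 and 2 and within replicates 3 and 4, the log2 ratio was -0.70 and -0.73 for Hoxb3, -0.73 and -0.53 for Hoxb5, -0.42 and -0.30 for Hoxb6, -0.38 and -0.50 for Hoxb7, -0.58 and -0.60 for Hoxb8, and 0.25 and 0.31 for Hoxa9.

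The data show no pairing of libraries by replicate number beyond the split of replicates 1 and 2 from 3 and 4. With the replicate number as a block, 10 members passed at passage 7, against 31.7% of all genes. The members it added included Hoxb2 at -0.31 (adjusted p = 0.0071), Hoxb9 at -0.14 (adjusted p = 0.021) and Hoxd8 at -0.14 (adjusted p = 0.042), all lower with DOX. Without the block these had adjusted p-values of 0.091, 0.11 and 0.079. Libraries of the groups did not overlap at passage 7 for 8 of the 31 members, beside 25.2% of all genes, with 1 higher (Hoxa11; 12.4%) and 7 lower (12.8%).

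At passage 4 fewer Hox genes were called with DOX, and Hoxb3 was the one member called at both passages, beside 11.2% of all genes. Hoxb3, Hoxb9 and Hoxd8 were lower and Hoxc8 was higher with DOX, 12.9% of the 31 members, against 17.5% of all genes (8.45% higher and 9.1% lower). The log2 fold change of Hoxb3 was -0.52 (SE 0.13, adjusted p = 0.011), and within replicates 1 and 2 its log2 ratio was -0.25, against -0.76 within replicates 3 and 4. Its libraries without DOX split the same way, with replicates 3 and 4 well above 1 and 2.

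Hoxb9 had 174, 177, 174 and 166 CPM with DOX at passage 4, against 232, 222, 206 and 198 CPM without. At passage 7 the libraries with DOX had 176, 183, 163 and 165 CPM, against 186, 207, 182 and 179.6 CPM without. The passage 4 groups were apart, with a log2 fold change of -0.31 (SE 0.06, adjusted p = 0.001), and the passage 7 groups overlapped. Hoxd8, the most anterior strongly expressed gene of its cluster, had 93.9, 100.2, 85.7 and 84.1 CPM with DOX at passage 4, against 102, 103, 102 and 101 CPM without. Its passage 7 libraries had 80.3, 78.5, 78.6 and 79.4 CPM with DOX, against 85.8, 88.4, 89.03 and 84.9 CPM without. Groups were apart at each passage though the difference was small, with a log2 fold change of -0.17 (SE 0.05, adjusted p = 0.037) at passage 4.

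Hoxc8, which patterns thoracic vertebrae and brachial motor neurons, had 14.7, 15.99, 12.6 and 12.1 CPM with DOX at passage 4, against 11.7, 11.4, 11.2 and 11.4 CPM without. Its values at passage 7 were 13.1, 13.2, 12.7 and 14.3 CPM with DOX, against 14.2, 14.9, 12.9 and 13.5 CPM without. The passage 4 groups did not overlap and the passage 7 groups did, and the log2 fold change at passage 4 was 0.28 (SE 0.10, adjusted p = 0.049). That call was lost without any 1 of 14 libraries, with adjusted p-values of 0.051 to 0.18, and only leaving out replicate 3 or 4 of passage 4 with DOX kept it. The call of Hoxd8 was lost without replicate 3 or 4 with DOX or any replicate without DOX at passage 4, or without replicate 4 of passage 7 with DOX, with adjusted p-values of 0.051 to 0.13. The count of members called was 2 in place of 4 without replicate 3 or 4 of passage 4 without DOX, or without replicate 4 of passage 7 with DOX. In those fits 15.3% to 16.6% of all genes were called. With the replicate block Hoxb2, at -0.23 (adjusted p = 0.031), and Hoxc4, at -0.37 (adjusted p = 0.031), joined the lower members, beside 27.3% of all genes called. Groups were apart for 5 of the 31 members at passage 4, beside 21.3% of all genes, with 1 higher (10.3%) and 4 lower (11%).

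Averaged over both passages, DOX lowered 9 members and raised 2, or 35.5% of the 31, against 32.3% of all genes (16.6% lower and 15.7% higher). The lower ones included Hoxb2, Hoxb3, Hoxb5, Hoxb7, Hoxb8 and Hoxb9 in Hoxb, with Hoxc4 and Hoxd8, and the higher ones Hoxa9 and Hoxa11. All 9 tested Hoxb members had a negative averaged log2 fold change, -0.62 to -0.09, and 8 of 10 tested Hoxa members a positive one. Hoxa11 was at 0.28 (SE 0.08, adjusted p = 0.015) and Hoxa10 at -0.03. Without any 1 of 5 libraries the call of Hoxb2 was lost, and without any 1 of 6 that of Hoxc4, with adjusted p up to 0.064 and 0.07.

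**Figure D2:**
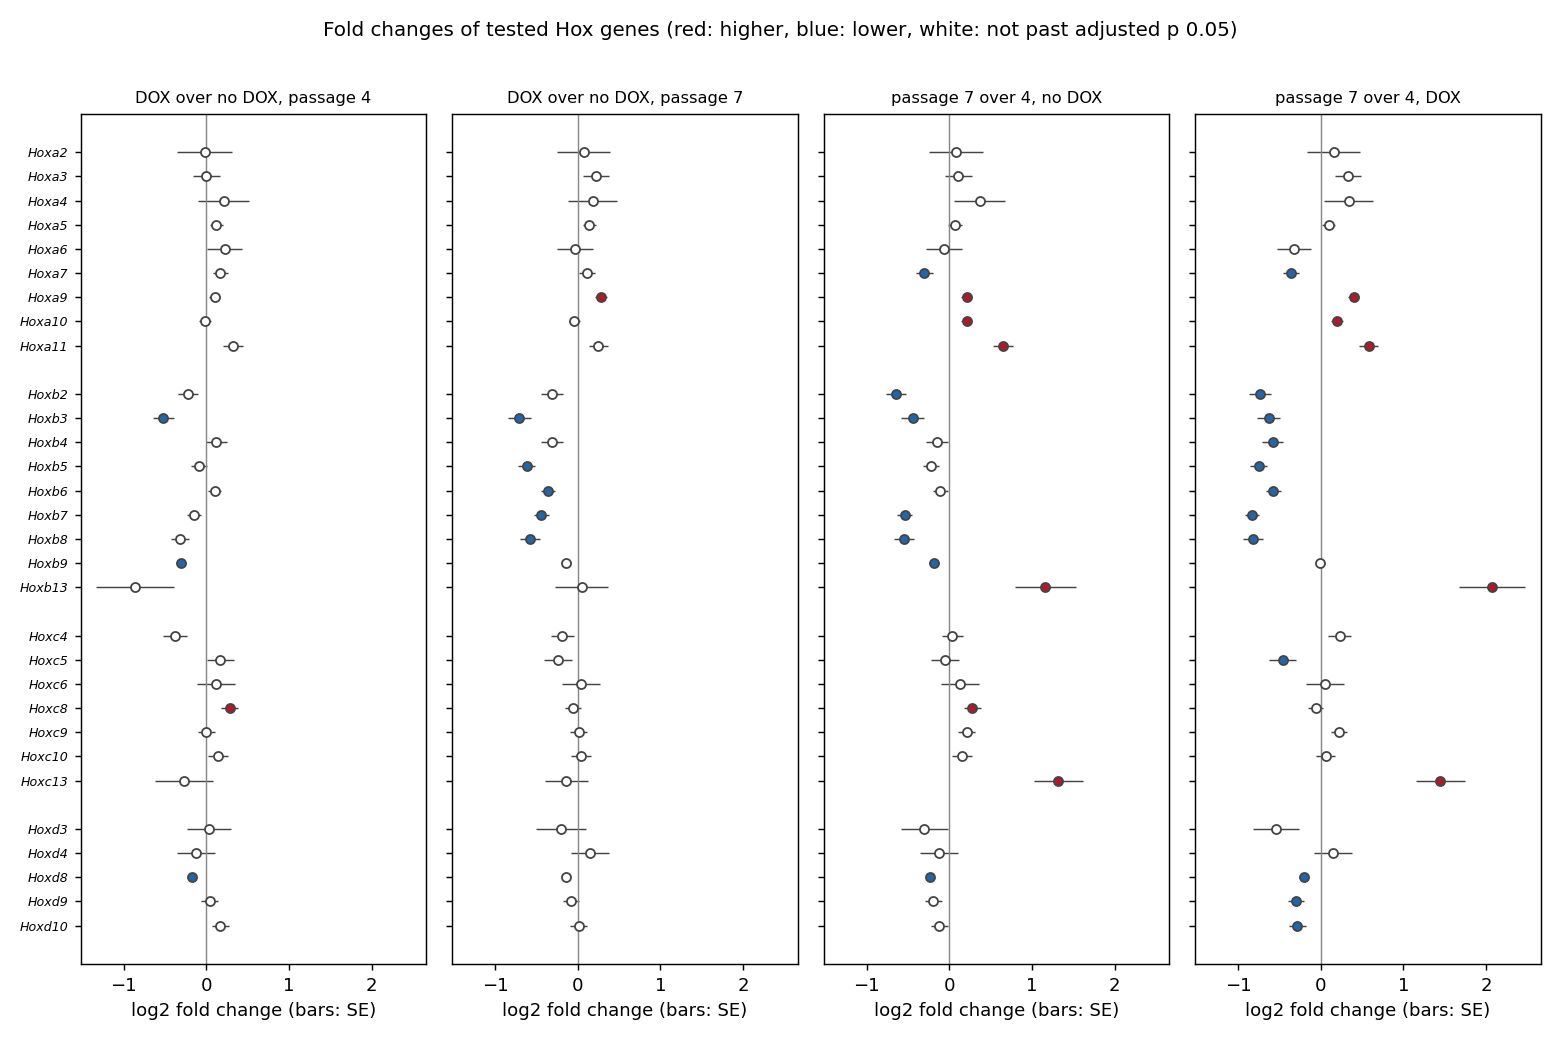
Log2 fold change with its standard error for the tested Hox genes reported here, in cluster order, for DOX over no DOX at each passage and passage 7 over passage 4 in each DOX state. Red points were called higher, blue points lower and white points neither; Hoxb2 to Hoxb8 lie left of 0 in the last panel, and Hoxb13 and Hoxc13 furthest to the right.

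Hoxb5 and Hoxb6 had the lowest adjusted p for a difference in DOX response between the passages. The difference of the log2 fold changes, passage 7 minus passage 4, was -0.52 (SE 0.14, adjusted p = 0.078) for Hoxb5 and -0.46 (SE 0.12, adjusted p = 0.075) for Hoxb6, so no member passed the test there, beside 1.19% of all genes (0.516% higher and 0.679% lower). DESeq2 called 2 members for this difference, beside 2.28% of all genes. One member, lower, passed without replicate 3 of passage 4 with DOX, replicate 3 of passage 4 without DOX, replicate 2 or 4 of passage 7 with DOX, or replicate 3 of passage 7 without DOX, in place of 0. The share of all genes in those fits is not given here. With the replicate block both genes passed, at -0.53 and -0.45 (adjusted p = 0.014 each), beside 4.67% of all genes. For the rest of the 31 members no difference between the passages was detected, which does not show that they responded alike.

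More Hox genes were called between the passages than between the DOX states. Without DOX, 7 members were higher and 7 lower at passage 7 than at passage 4, or 45.2% of the 31, against 25.6% of all genes (14.3% higher and 11.3% lower). With DOX, 6 were higher and 12 lower, or 58.1%, against 34.1% of all genes (18.3% higher and 15.8% lower). The distance from the background was not tested. With DOX the share was 45.2% or more whichever library was left out, against 28.2% to 33.7% of all genes. Without DOX it was 22.6% without replicate 4 of passage 4 without DOX, against 21.3% of all genes in the same fit, and 25.8% without replicate 3 of that group, against 22.4%, so that share is near the background without either library. Of the 31 members 12 were called in both passage comparisons, which share no library, beside 18.2% of all genes. Groups did not overlap for 9 members without DOX and for 17 with DOX, beside 26.9% and 32.4% of all genes. Of the 9, 5 were higher (14.6%) and 4 lower (12.3%), and of the 17, 6 were higher (17.5%) and 11 lower (14.9%).

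With DOX the Hoxb cluster fell with passage from Hoxb2 to Hoxb8. All 7 of these genes were lower at passage 7, each at 0.563 to 0.672 of its passage 4 level, in groups that did not overlap. The log2 fold changes were -0.73 for Hoxb2, -0.63 for Hoxb3, -0.58 for Hoxb4, -0.75 for Hoxb5, -0.57 for Hoxb6, -0.83 (SE 0.09, adjusted p = 1.7e-06) for Hoxb7 and -0.82 (SE 0.12, adjusted p = 4.3e-05) for Hoxb8. Without DOX, 4 of the 7 passed the test, Hoxb2 at -0.64, Hoxb3 at -0.44, Hoxb7 at -0.54 and Hoxb8 at -0.55, while Hoxb4, Hoxb5 and Hoxb6 were at -0.15, -0.22 and -0.11. Hoxb9, next in line, was at -0.18 (SE 0.06, adjusted p = 0.028) without DOX and at -0.01 (SE 0.06, adjusted p = 0.91) with it.

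Hoxb2, a hindbrain gene, had 26.4, 25.4, 17.7 and 17.1 CPM with DOX at passage 7, against 38.4, 37.5, 32.4 and 34.3 CPM with DOX at passage 4. Without DOX it had 30.8, 27.6, 22.7 and 25.7 CPM at passage 7, against 44.9, 40.7, 40.5 and 40.6 CPM at passage 4. Its passage groups were apart in each DOX state. Of the exon bases of Hoxb2 27.3% lie opposite Hoxb3os, with the same limit as for Hoxb3. Hoxb4, known for expanding blood stem cells, had 23.2, 30.1, 25.5 and 31.4 CPM with DOX at passage 7, against 42.4, 49.9, 36.8 and 35.2 CPM with DOX at passage 4. Its values without DOX were 38.2, 31, 28.3 and 39.4 CPM at passage 7, against 35.1, 34.5, 40.5 and 41.4 CPM at passage 4. Only the groups with DOX were apart.

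**Figure D3:**
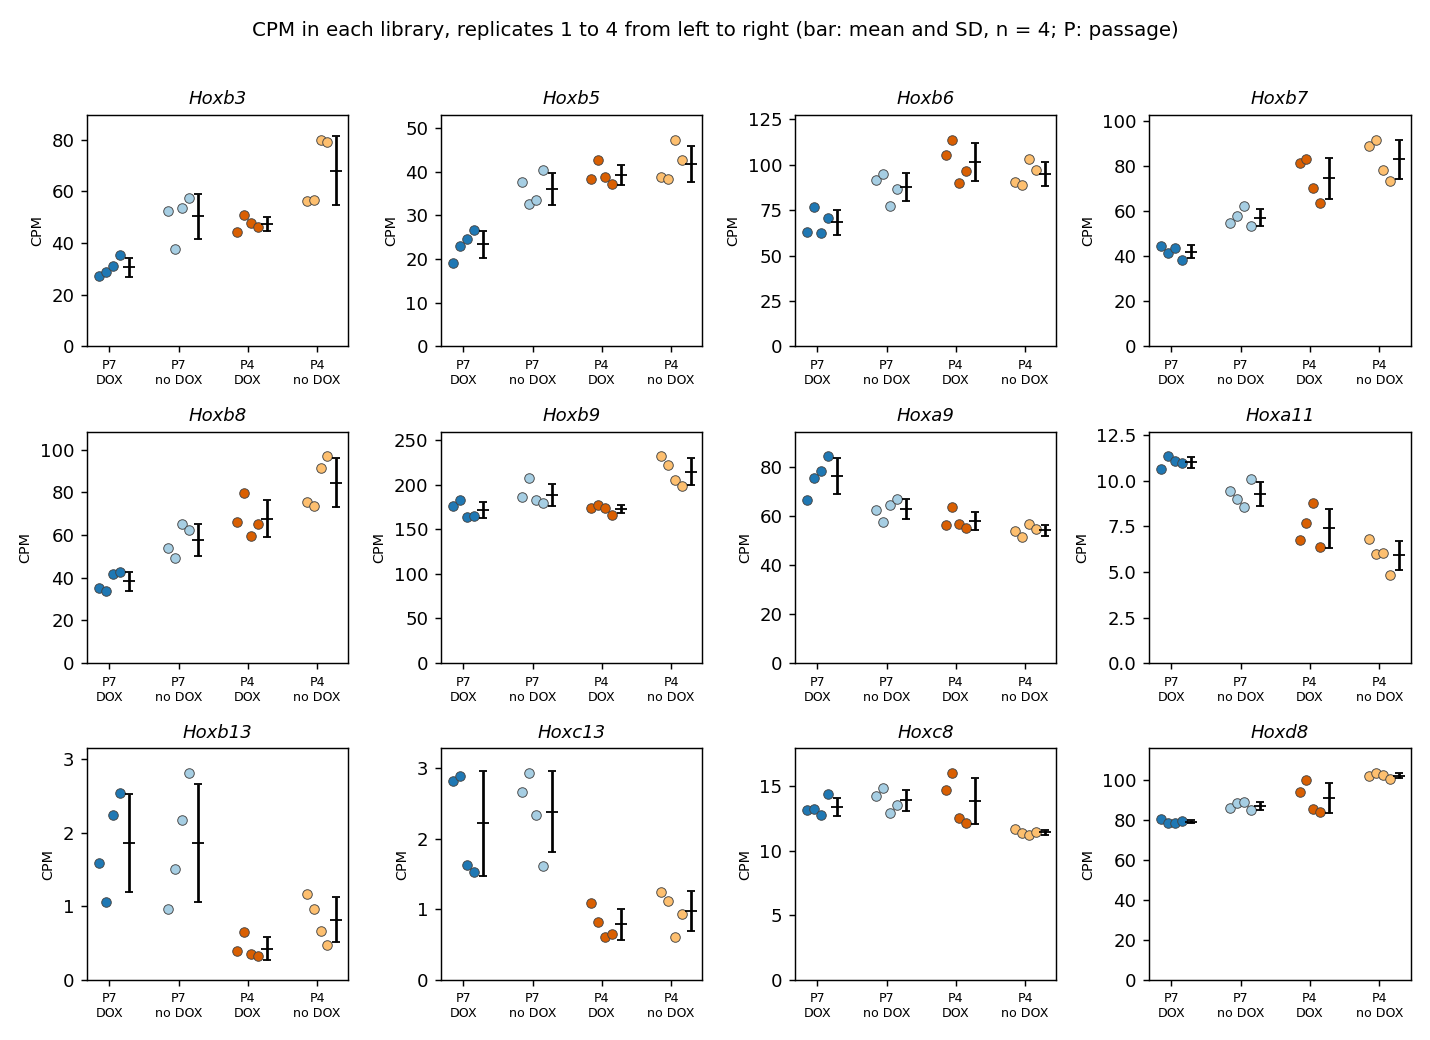
CPM of 12 Hox genes in each library, 4 groups from left to right, with replicates 1 to 4 in order inside a group; bars give the mean and SD (n = 4), axes start at 0 and P stands for passage. The 4 passage 7 libraries with DOX are the lowest for Hoxb5, Hoxb6, Hoxb7 and Hoxb8, whereas the means of Hoxa9 and Hoxa11 are highest there.

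The summed level of the 10 Hoxb genes was 425 ± 14.2 CPM with DOX at passage 7, 540 ± 9.26 without DOX at passage 7, 580 ± 42.3 with DOX at passage 4 and 667 ± 16.7 without DOX at passage 4 (SD, n = 4 each). Hoxb genes made up 46.6%, 53%, 55% and 58.8% of all Hox CPM in the same 4 groups. Over the same groups Hoxa summed to 218, 201, 188 and 180 CPM, Hoxc to 115, 115, 108 and 102, and Hoxd to 153, 162, 180 and 186. The mean of Hoxa was thus highest where that of Hoxb was lowest. However, Hoxa libraries overlapped, at 202.5 to 226.6 CPM with DOX at passage 7, 184.6 to 214.1 without, and 179.8 to 202.8 with DOX at passage 4. Sums were not tested, and a few genes dominate each.

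**Figure D4:**
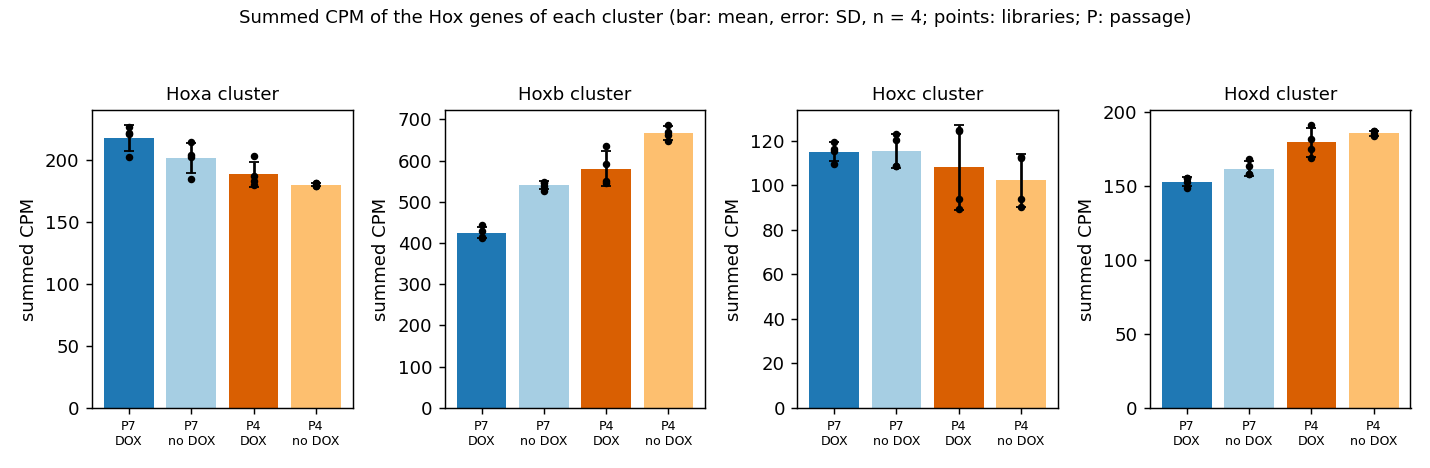
Summed CPM of the Hox genes of each cluster by group, with the mean as the bar, the SD as the error bar (n = 4) and each library as a point; axes start at 0 and P stands for passage. The mean Hoxb sum is lowest in passage 7 cells with DOX (425 CPM) and highest in passage 4 cells without DOX (667 CPM). The means of the Hoxa sum run the other way, with libraries that overlap between groups.

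In Hoxa, the posterior genes Hoxa9, Hoxa10 and Hoxa11 rose with passage in each DOX state, and Hoxa7 fell in each. Hoxa11, the group 11 member that was expressed, had 10.7, 11.3, 11.1 and 10.98 CPM with DOX at passage 7, against 6.75, 7.70, 8.77 and 6.35 CPM with DOX at passage 4. Without DOX it had 9.46, 9.02, 8.59 and 10.1 CPM at passage 7, against 6.80, 5.99, 6.06 and 4.84 CPM at passage 4. All passage 7 libraries were above all passage 4 libraries in the same DOX state, with log2 fold changes of 0.58 (SE 0.12, adjusted p = 0.00088) with DOX and 0.65 (SE 0.12, adjusted p = 0.00078) without. Of its exon bases 35% lie opposite Hoxa11os, with the same limit as for Hoxb3.

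Hoxa10, which shapes the uterus and the lumbar spine, had 56.8, 55.5, 61.5 and 58.2 CPM with DOX at passage 7, against 51.02, 53.5, 50.7 and 46.7 CPM with DOX at passage 4. Its values without DOX were 55.1, 54.2, 62.5 and 66.3 CPM at passage 7, against 52.4, 55.7, 47.8 and 49.1 CPM at passage 4. The difference was small, 0.20 with DOX and 0.21 without on the log2 scale, and the groups without DOX overlapped. Hoxa9 was higher at passage 7 by 0.40 (SE 0.07, adjusted p = 0.00032) with DOX and 0.21 (SE 0.07, adjusted p = 0.035) without.

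Hoxa7, a trunk gene, had 20.2, 21.4, 22.9 and 20.2 CPM with DOX at passage 7, against 27.9, 29.2, 25.5 and 26.2 CPM with DOX at passage 4. Its libraries without DOX had 17.4, 17, 22.8 and 21.8 CPM at passage 7, against 21.7, 24.5, 25.8 and 24.9 CPM at passage 4. The groups were apart with DOX, at -0.36 (SE 0.10, adjusted p = 0.0067), and overlapped without, at -0.30 (SE 0.10, adjusted p = 0.029). Of the exon bases of Hoxa7 20.4% lie opposite the antisense gene Hoxaas3, with the same limit as for Hoxb3. The tested members Hoxa2 to Hoxa6 passed no test in any of the 4 pairwise comparisons, with log2 fold changes between -0.32 and 0.37.

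Among the tested members, the 2 of group 13 rose the most with passage, from a low level. Hoxb13 passed the filter on low counts only through its passage 7 libraries, so its place among the tested members is tied to its rise. Hoxc13, which controls hair and nail keratins, had 2.82, 2.89, 1.62 and 1.52 CPM with DOX at passage 7, against 1.09, 0.823, 0.602 and 0.643 CPM with DOX at passage 4. Without DOX it had 2.66, 2.93, 2.33 and 1.60 CPM at passage 7, against 1.24, 1.11, 0.599 and 0.938 CPM at passage 4. All passage 7 libraries lay above all passage 4 libraries in the same DOX state, with log2 fold changes of 1.45 (SE 0.30, adjusted p = 0.0012) with DOX and 1.32 (SE 0.30, adjusted p = 0.0032) without. Hoxb13, known from the prostate and the tail bud, had 1.59, 1.06, 2.25 and 2.54 CPM with DOX at passage 7, against 0.388, 0.647, 0.344 and 0.322 CPM with DOX at passage 4. Its values without DOX were 0.961, 1.502, 2.17 and 2.81 CPM at passage 7, against 1.16, 0.961, 0.666 and 0.469 CPM at passage 4. It rose by 2.07 (SE 0.40, adjusted p = 0.00063) with DOX, in groups that were apart, and by 1.16 (SE 0.37, adjusted p = 0.028) without, in groups that overlapped. Without DOX its log2 ratio was 0.22 within replicates 1 and 2 and 2.13 within replicates 3 and 4. Hoxb13 starts 77141 bp from Hoxb9, and it was the one tested Hoxb member higher at passage 7.

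Among the other Hoxc and Hoxd genes, Hoxd8 was lower at passage 7 in each DOX state, at -0.20 (SE 0.05, adjusted p = 0.0072) with DOX and -0.23 (SE 0.05, adjusted p = 0.0039) without. Hoxd9, a limb and trunk gene, had 30.4, 36.9, 39 and 39.7 CPM with DOX at passage 7, against 42.1, 42.5, 49.5 and 46.5 CPM with DOX at passage 4. Without DOX it had 36.9, 33.9, 42.5 and 41.6 CPM at passage 7, against 42.5, 37.9, 49.9 and 45.6 CPM at passage 4. With DOX the groups were apart, at -0.30 (SE 0.10, adjusted p = 0.025), and without DOX they overlapped. The difference without DOX passed with the replicate block, at -0.18 (adjusted p = 0.032).

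Hoxd10, which patterns lumbar motor neurons, had 32.5, 31.2, 32.1 and 28.9 CPM with DOX at passage 7, against 40.3, 43.8, 34.98 and 31.9 CPM with DOX at passage 4. Its libraries without DOX had 30.7, 31.3, 30.3 and 31.2 CPM at passage 7, against 37.9, 37.7, 28.2 and 30.9 CPM at passage 4. The groups overlapped in each state, and the test passed with DOX, at -0.28 (SE 0.10, adjusted p = 0.038). Hoxc5 had 2.11, 3.17, 2.81 and 3.81 CPM with DOX at passage 7, against 4.42, 4.29, 3.95 and 3.86 CPM with DOX at passage 4. Without DOX its values were 3.77, 2.85, 4.01 and 3.61 CPM at passage 7, against 3.48, 3.77, 3.53 and 3.98 CPM at passage 4. Only the groups with DOX were apart, at -0.46 (SE 0.16, adjusted p = 0.038). Hoxc8 was higher at passage 7 without DOX, at 0.28 (SE 0.10, adjusted p = 0.038), in groups that were apart, and was at -0.06 with DOX.

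The 2 most strongly expressed Hoxc genes passed no test between the groups. Hoxc10, a lumbar gene, had 37.4, 36.1, 36.9 and 34.1 CPM with DOX at passage 7, against 34.96, 37.9, 35.3 and 32.1 CPM without. At passage 4 the same gene had 40.6, 38.7, 28.8 and 30.5 CPM with DOX, against 38.1, 33.7, 28.96 and 25.2 CPM without. Hoxc6, a thoracic gene, had 30.6, 36.6, 28.3 and 25.6 CPM with DOX at passage 7, against 34.7, 35.8, 23.04 and 23.7 CPM without. For Hoxc6 at passage 4 the values were 34.1, 38.5, 18.9 and 24.4 CPM with DOX, against 33.3, 32.7, 21.6 and 20.2 CPM without. In every group replicates 1 and 2 of Hoxc6 were above replicates 3 and 4.

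Replicates 3 and 4 differed from 1 and 2 in 10 of the 31 members, 3 higher and 7 lower, beside 2673 higher and 2984 lower of all 15316 genes. The log2 difference, replicates 3 and 4 minus 1 and 2, was -0.57 for Hoxc6 (SE 0.06, adjusted p = 8e-08), -0.65 for Hoxc13, -0.26 for Hoxb2, -0.24 for Hoxc10, -0.20 for Hoxd10, -0.15 for Hoxb7 and -0.12 for Hoxb9. It was 0.41 for Hoxd4, 0.26 for Hoxb3 and 0.23 for Hoxd9. Every group holds 2 libraries of each pair.

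Several passage calls rested on single libraries. Without DOX, the count of 14 members fell to 7 without replicate 4, and to 8 without replicate 3, of passage 4 without DOX, and to 9 without replicate 1 or 4 of passage 7 without DOX. Each of these 4 libraries belongs to the comparison, and in those fits 21.3% to 22.6% of all genes were called. The calls without DOX lost on leaving out 1 library included Hoxa7 (without any of 5 libraries, adjusted p up to 0.1), Hoxa9 (6, up to 0.1), Hoxa10 (5, up to 0.13), Hoxb3 (3, up to 0.081), Hoxb9 (5, up to 0.099), Hoxb13 (4, up to 0.097) and Hoxc8 (7, up to 0.11). With DOX they included Hoxa10 (6, up to 0.12), Hoxc5 (6, up to 0.11), Hoxd9 (3, up to 0.088) and Hoxd10 (6, up to 0.15). The falls of Hoxb2, Hoxb7, Hoxb8 and Hoxd8 and the rises of Hoxa11 and Hoxc13 with passage kept their calls in both DOX states when any 1 library was left out. For Hoxb2 and Hoxa11 the limit from their antisense genes remains.

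Noncoding genes inside the clusters were read from the same counts. Of 46 other genes, most of them noncoding, that lie between the outermost Hox genes of a cluster, 19 were tested. Of these, the numbers called higher and lower were 0 and 3 for DOX at passage 7, 2 and 1 for DOX at passage 4, 0 and 6 for passage with DOX and 2 and 1 for passage without DOX. These are 15.8%, 15.8%, 31.6% and 15.8% of the 19, against 22.6%, 17.5%, 34.1% and 25.6% of all genes, so no share was above the background. Hoxb3os, the antisense gene of Hoxb3, had 41.5, 40.4, 37.6 and 40.4 CPM with DOX at passage 7, against 65.9, 49.3, 57.3 and 64.1 CPM without. For Hoxb3os at passage 4 the values were 67.3, 70.4, 63.1 and 61.1 CPM with DOX, against 82.7, 75.2, 91.02 and 91.7 CPM without. It was lower with DOX at each passage, at -0.57 (SE 0.09, adjusted p = 9.1e-05) and -0.38 (SE 0.08, adjusted p = 0.0034), and lower with passage at -0.71 with DOX and -0.53 without. Hoxb5os was lower with passage in cells with DOX, at -0.74 (SE 0.16, adjusted p = 0.0013). Hotairm1, a long noncoding gene of the Hoxa cluster, was higher at passage 7 without DOX, at 0.67 (SE 0.19, adjusted p = 0.014).

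The clusters also hold microRNA genes, 2 families of which are shown because both lie between Hox genes and one of them is known to cut Hoxb8 transcripts. Mature sequences are from RefSeq on GRCm38.p6, written 5′ to 3′, with the seed, bases 2 to 8, in capitals.
miR-196a-5p: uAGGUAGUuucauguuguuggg
miR-196b-5p: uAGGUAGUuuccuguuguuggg
miR-10a-5p: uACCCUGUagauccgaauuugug
miR-10b-5p: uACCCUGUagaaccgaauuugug
The miR-196 pair shares the seed AGGUAGU and the miR-10 pair the seed ACCCUGU. miR-196a-5p comes from chr11:96265187-96265208 (plus strand, Hoxb) and chr15:102973365-102973386 (plus strand, Hoxc), and miR-196b-5p from chr6:52230129-52230150 (minus strand, Hoxa). miR-10a-5p comes from chr11:96317186-96317208 (plus strand, Hoxb) and miR-10b-5p from chr2:74726074-74726096 (plus strand, Hoxd).

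Of all Hox transcripts searched, Hoxb8 held the window most complementary to miR-196a-5p, with 21 of 22 bases paired, after the coding region. Capitals mark the bases that pair as A with U or G with C, the only pairs counted. The g of the Hoxb8 window stands opposite a U of the microRNA, and G with U was not counted as a pair. The next best windows, in Hoxa4 and Hoxd8, paired 15 of 22 bases, and that of Hoxd8 is shown for contrast. Both are written 5′ to 3′ on the transcript, from the GENCODE M21 transcripts of GRCm38.
Hoxb8: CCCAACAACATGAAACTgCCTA
Hoxd8: CtCAACAACATaAActTcCtaA
These libraries were made from poly(A) RNA, so counts on a microRNA gene are reads of longer transcripts and not of the mature microRNA. Mir196a-1, which lies in the Hoxb cluster, was lower with passage in cells with DOX, at -0.43 (SE 0.15, adjusted p = 0.034), and Mir10a at -1.19 (SE 0.32, adjusted p = 0.0078). Mir10a had 3 to 10 counts with DOX at passage 7, against 13 to 17 with DOX at passage 4. Mature microRNAs were not measured here.

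Hox proteins bind DNA with TALE homeodomain partners of the PBX, MEIS and PKNOX families. The list of 11 TALE genes also held Tgif1 and Tgif2, TALE repressors of another family. Of the 11, 10 were tested, and 1 was higher and 3 lower with DOX at passage 7 (40%, against 22.6% of all genes), and 2 higher and 1 lower at passage 4 (30%, against 17.5%). Meis2, a MEIS family partner, had 22.6, 22.2, 22.1 and 23.1 CPM with DOX at passage 7, against 15.6, 16.4, 17.3 and 17.96 CPM without. For Meis2 at passage 4 the values were 20.9, 19.3, 20.2 and 24.1 CPM with DOX, against 15.2, 17.1, 15.1 and 17.1 CPM without. Groups were apart at each passage, and it was higher by 0.42 (SE 0.08, adjusted p = 0.001) at passage 7 and 0.39 (SE 0.08, adjusted p = 0.0027) at passage 4. Pbx4 (-0.80) and Meis3 (-0.41) were lower at passage 7. Neither passage comparison called Meis2, and there the list had 1 higher and 2 lower members with DOX (30%, against 34.1% of all genes) and 1 higher and 0 lower without (10%, against 25.6%). The higher one was Tgif2 in both, at 0.49 with DOX and 0.40 without.

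Of 23 Polycomb genes, whose products silence Hox genes, all were tested, and 6 were higher and 3 lower with passage in cells with DOX, 5 and 3 in cells without, 2 and 1 with DOX at passage 7, and 0 and 1 with DOX at passage 4. As shares these are 39.1%, 34.8%, 13% and 4.35%, against 34.1%, 25.6%, 22.6% and 17.5% of all genes. Ezh2, the H3K27 methyltransferase, was higher at passage 7 by 0.47 (SE 0.06, adjusted p = 2.3e-05) with DOX and 0.38 (SE 0.06, adjusted p = 3e-04) without. Of 15 Trithorax, H3K27 demethylase and elongation genes, which keep Hox genes active, all were tested. With passage, 3 were higher and 2 lower in cells with DOX, and 1 and 2 in cells without. With DOX, 1 was higher and 2 lower at passage 7, and 0 and 1 at passage 4. The shares of this list in the same order were 33.3%, 20%, 20% and 6.67%, all below those of all genes. Kmt2a, the methyltransferase that maintains Hox expression, was lower at passage 7, at -0.47 (SE 0.06, adjusted p = 1.4e-05) with DOX and -0.26 (SE 0.06, adjusted p = 0.0041) without, and lower with DOX at passage 7, at -0.28 (SE 0.06, adjusted p = 0.0029). Aff1, an elongation gene of the same list, was lower with DOX at -0.28 (SE 0.05, adjusted p = 0.00054) at passage 7 and -0.36 (SE 0.05, adjusted p = 6.2e-05) at passage 4.

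Regulators that act upstream of Hox genes or beside them in the kidney made a list of 16, of which 12 were tested. Called higher and lower were 1 and 3 with DOX at passage 7, 3 and 2 with DOX at passage 4, 3 and 3 with passage in cells with DOX, and 3 and 1 in cells without. These are 33.3%, 41.7%, 50% and 33.3% of the 12, against 22.6%, 17.5%, 34.1% and 25.6% of all genes. Pax8, a nephric lineage factor, was lower with DOX at -0.41 (SE 0.05, adjusted p = 1.1e-05) at passage 7. Gata3, a nephric duct factor, was higher at passage 7 by 0.62 (SE 0.16, adjusted p = 0.006) with DOX and 1.21 (SE 0.17, adjusted p = 4.5e-05) without.

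Genes within 500 kb of the Hoxb cluster moved in both directions with DOX. Skap1, an adaptor protein gene 96337 bp from the outermost Hoxb gene, had 4.05, 2.89, 2.87 and 4.06 CPM with DOX at passage 7, against 6.36, 6.41, 5.86 and 5.02 CPM without, and it was lower at -0.78 (SE 0.19, adjusted p = 0.0047) at passage 7 and -0.84 (SE 0.17, adjusted p = 0.0015) at passage 4. B4galnt2, a glycosyltransferase gene 279425 bp away on the other side, had 21.3, 18.96, 28.2 and 21.5 CPM with DOX at passage 7, against 2.29, 2.06, 3.21 and 3.41 CPM without. At passage 4 it had 3.18, 2.35, 5.42 and 4.10 CPM with DOX, against 0.498, 0.517, 0.466 and 0.781 CPM without. It was higher at 3.05 (SE 0.21, adjusted p = 8.3e-09) at passage 7 and 2.69 (SE 0.32, adjusted p = 6.8e-06) at passage 4. Of 50 protein-coding genes within 500 kb of the 4 clusters 32 were tested, and 5 were higher and 5 lower with DOX at passage 7, 1 and 5 with DOX at passage 4, 12 and 1 with passage in cells with DOX, and 8 and 2 in cells without. The shares called were 31.2%, 18.8%, 40.6% and 31.2%, against 22.6%, 17.5%, 34.1% and 25.6% of all genes.

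Marker sums also differed between the groups, and their part in the Hox results was not tested. A sum follows its most abundant genes and does not measure the share of a cell type. The 15 collecting duct markers, of which 11 were tested, summed to 5540 to 6140 CPM with DOX at passage 7, 6380 to 6860 without DOX at passage 7, 4480 to 4610 with DOX at passage 4 and 5570 to 5720 without DOX at passage 4. The list also holds general epithelial genes such as Cdh1, Epcam and Krt8. Its tested members went both ways with passage, with log2 fold changes of -2.20 to 0.68 with DOX and -2.12 to 1.21 without. The 9 fibroblast and stromal markers summed to 3.94 to 7.13, 2.71 to 4.27, 1.21 to 1.94 and 1.13 to 1.77 CPM in the same groups, with Col3a1, Lum and Thy1 at 0 in every library. The 5 leukocyte markers summed to 36.1 to 43.7, 67.1 to 75.2, 20.1 to 35.5 and 39 to 46.9 CPM, with Itgam at 0 throughout. Tested leukocyte markers also went both ways with passage, at -3.66 to 0.81 with DOX and -1.68 to 1.03 without. Podocyte markers summed to 227 to 249, 259 to 287, 156 to 167 and 176 to 184 CPM, with Wt1 at 0. Proximal tubule markers stayed between 9.71 and 13.5 CPM with Slc22a6 at 0, loop and distal tubule markers at 1 CPM or less with Pvalb and Cldn16 at 0, and endothelial markers at 0.401 CPM or less with Emcn at 0.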

How the data were processed

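Poly(A) RNA for 16 libraries of 1 mouse line was sequenced with a directional kit, per the labels. The authors deposited whole-number counts per gene and TPM values for the same genes. Reads of 75 bp from 2 ends were aligned with STAR 2.6.0c to GRCm38.p6, per the labels' protocols. The counting tool, annotation release, strand setting and the making of the TPM are not given in the sources used here. The deposited TPM values were not used, because 4 of their 16 columns fit the counts that carry the same name and 12 fit counts of another group, while the count columns follow the DOX labels in Pkd2.

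Counts were tested with edgeR 4.0.16 (R 4.3.3, limma 3.58.1), using TMM factors, filterByExpr by group, 1 mean per group over all 16 libraries, a robust quasi-likelihood fit and Benjamini-Hochberg adjustment over the 15316 of 55536 genes that passed the filter, with a threshold of 0.05. All 55536 IDs matched GENCODE M21, which gave symbols and exon lengths (all exons of a gene merged). Library totals of 9937504 to 17188295 counts set the precision, and Poisson intervals cover counting error only. Sequences came from RefSeq tables on GRCm38.p6 and GENCODE M21 transcripts. The fit was tested on simulated data. No 2 libraries of a group were alike within sampling noise. However, chi-square per degree of freedom was 1.85 to 4.59 between replicates 1 and 2 or 3 and 4 of a group. Across these pairs it was 10.1 to 18.6. The 4 libraries of a group may thus count as fewer separate samples than the main fit takes them for.

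Groups follow the DOX and passage labels. Deviations of same-numbered replicates correlated across groups at 0.18 to 0.37 in all 24 pairs of libraries. However, other numbers in the same pair of replicates correlated as highly, at 0.18 to 0.39, so pairing by number was not shown. Alternatives were DESeq2 1.42.0, its size factors, other filters, only the libraries compared, a replicate block, a replicate pair term and leaving out each library. The 39 members and the other lists were chosen with earlier results of these data known. Values per library are given for members called in a comparison and the 2 with the highest level per kb in each cluster, and at most 4 genes of each other list per comparison, by adjusted p. Some genes are not reported here.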

Additional observations from a re-analysis of the deposited data

Results flagged for a closer look

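In 124 sets of 4 libraries, 1 for each tested Hox gene and group, 3 held a library far from the other 3, where chance flags about 1 in 20 such sets. Hoxa4 had 1.398 CPM in replicate 3 of passage 4 without DOX, the lowest value, with 2.218 to 2.266 CPM in the other 3. Hoxb2 had 44.87 CPM in replicate 1 of passage 4 without DOX, the highest value, with 40.55 to 40.73 CPM in the other 3. Hoxc4 had 9.422 CPM in replicate 3 of passage 7 with DOX, the highest value, with 6.906 to 7.237 CPM in the other 3.

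Among the other genes named, the DOX response of Nfe2l1, a transcription factor gene 449158 bp from the Hoxb cluster, differed between the passages by the edgeR test of that difference. Its log2 fold change at passage 7 minus that at passage 4 was 0.37 (adjusted p = 0.0036).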

How the results depend on the processing

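Results for single genes were followed only where the main fit had called the gene, so a change of sign was unlikely from the start. No Hox gene result changed sign under any alternative. In all, 36 of 53 results for single Hox genes and 55 of 81 for other named genes kept their call under all alternatives. For DOX at passage 4 the count of 4 Hox genes became 2 with no filter on low counts (7.88% of all genes called). It was 2 with only the libraries compared (16%), and 7 with a term for replicates 3 and 4 against 1 and 2 (28.4%). For DOX at passage 7 the count of 6 became 10 with that term (32.8% of all genes). For the difference of the DOX responses the count of 0 became 2 with DESeq2 (2.28% of all genes), 2 with no filter (0.663%) and 2 with that term (5.36%). The cause of these shifts was not tested. With the replicate number as a block, the counts became 10 for DOX at passage 7 (31.7% of all genes) and 2 for the difference (4.67%). No call was lost, and the block also added Hoxb6 to the averaged DOX effect (41.9% of all genes). Leaving out 1 library gave 2 to 4 Hox genes for DOX at passage 4, beside 13.9% to 17.2% of all genes. It gave 6 to 8 for DOX at passage 7, beside 17.8% to 23.4%. For passage it gave 7 to 14 without DOX, beside 21% to 26.4%, and 14 to 18 with DOX, beside 28.2% to 33.7%. For the averaged effect it gave 9 to 12 and for the difference 0 to 1, where the shares of all genes are not given here. The averaged effect and the difference use all groups, so no fit on fewer groups was run. Depth limits the 8 members not tested and the low members Hoxb13, Hoxc13, Hoxa2 and Hoxd3, whose changes rest on few reads.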

Other observations

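Genes flanking the Hoxc cluster included genes lower with DOX at both passages, by edgeR's test with Benjamini-Hochberg adjustment. Calcoco1, an autophagy receptor gene 198925 bp from the cluster, had a log2 fold change with DOX of -0.32 at passage 7 (adjusted p = 3.3e-05) and -0.32 at passage 4 (adjusted p = 5.2e-05). Zfp385a, a zinc finger gene 277043 bp away, was at -0.50 at passage 7 (adjusted p = 0.004) and -0.65 at passage 4 (adjusted p = 0.00093). In each comparison all libraries with DOX were below all without.

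Between the passages the same flank held genes that were higher at passage 7. Itga5, the fibronectin receptor subunit 307434 bp from the cluster, was higher by 0.86 with DOX (adjusted p = 5.2e-06) and by 0.45 without (adjusted p = 0.0035). Pcbp2, an RNA-binding protein gene 421042 bp away, was higher by 0.39 with DOX (adjusted p = 2.1e-06) and by 0.30 without (adjusted p = 6.8e-05). Zfp385a ran against its DOX response, at 0.78 with DOX (adjusted p = 8.1e-05) and 0.63 without (adjusted p = 0.00067). The passage 7 and passage 4 libraries did not overlap for these 3 genes in either DOX state.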
